A study of Mus musculus with 2 samples.

Results

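MERVL is a mouse endogenous retrovirus (ERV) of the ERVL superfamily, and MT2 is the long terminal repeat (LTR) lineage that flanks such elements. The families whose names start with MERVL or MT2 were taken, whatever their values, and 7 of the 634 transposable element families of the table (1.10%) met this rule. They were MERVL-int, MERVL_2A-int, MT2_Mm, MT2A, MT2B, MT2B2 and MT2C_Mm, all listed as LTR elements of the ERVL superfamily. They were measured by RNA-seq of total RNA, in 2 libraries of mouse embryonic stem (ES) cells, 1 per condition. The Daxx-deleted culture received 1 µM 4-hydroxytamoxifen (4-OHT) for 48 hours and then recovered for 3 days. The control culture received DMSO. Both cultures were Daxx fl/fl with RosaCreERT, a Cre recombinase switched on by tamoxifen, on a B6/129 background, and both grew with LIF on feeder cells inactivated with mitomycin C. The control did not receive 4-OHT, so loss of Daxx and exposure to the drug or to active Cre cannot be told apart in this design.

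An ERV consists of an internal part, which carries the viral genes, between a pair of LTRs, which carry the promoter and the end signal of transcription. MERVL-int is the internal part and MT2_Mm the LTR of the element that mouse embryos transcribe in a burst at the 2-cell stage, when the genome of the embryo is first switched on. In the embryo MT2_Mm LTRs also act as promoters of neighbouring genes, and the transcription factor Dux binds and activates them. Cultures of ES cells hold a rare, passing state in which MERVL is transcribed as in the 2-cell embryo. Daxx is a histone chaperone that, with Atrx, places the histone variant H3.3 at repeats, and the study asked whether ERVs become active again without it.

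The levels are RPKM values, reads scaled to a length per family and to the exonic reads of protein-coding genes in the library. The length used was not given, and orders, quotients and shares between families rest on it. Each value pools reads from copies at many loci, and no locus can be read from it alone. No value has a replicate error, no p-value can be given, and the depth of the libraries is unknown. Most levels were low: the median of the 634 families was 0.0269 RPKM in the Daxx-deleted library and 0.0209 RPKM in the control. The rows used here are repeat families, with 0 of the genes listed for the 2-cell state, pluripotency and feeder fibroblasts, so the deletion of Daxx, the share of feeder cells and the share of 2-cell-like cells were not analysed here. In bulk RNA more cells that transcribe MERVL and more MERVL RNA per cell cannot be told apart.

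MERVL-int and MT2_Mm stood higher in the Daxx-deleted library, and the other 5 families stood close to their control levels. MERVL-int was at 0.101 RPKM in the Daxx-deleted library and at 0.0198 RPKM in the control, a ratio of 5.11. MT2_Mm was at 0.0637 RPKM in the Daxx-deleted library and at 0.0210 RPKM in the control, a ratio of 3.03. Among the other 5 families the ratios ran from 0.978 to 1.29. The pair held 32.3% of the summed RPKM of the 7 families in the Daxx-deleted library and 11.3% in the control. Of the summed difference of the 7 families, 84.1% lay in the pair. RPKM is scaled to a length for each family, so these are not shares of reads or of RNA.

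The order of the levels differed between the libraries, mainly in the places of this pair, while MT2B and MT2B2 also changed places. In the Daxx-deleted library the order was MT2B, MERVL-int, MT2B2, MERVL_2A-int, MT2_Mm, MT2A and MT2C_Mm, from highest to lowest. In the control it was MT2B2, MT2B, MERVL_2A-int, MT2A, MT2C_Mm, MT2_Mm and MERVL-int. MERVL-int thus stood at place 2 of 7 in the Daxx-deleted library and at place 7 in the control, and MT2_Mm at place 5 in the Daxx-deleted library and at place 6 in the control. Among all 634 families MERVL-int ranked 104 by level in the Daxx-deleted library and 335 in the control. MT2_Mm ranked 152 in the Daxx-deleted library and 315 in the control. Without replicates, neighbours in these orders cannot be separated. MT2C_Mm, MT2_Mm and MERVL-int lay between 0.0198 and 0.0216 RPKM in the control, and MT2B, MERVL-int and MT2B2 between 0.0981 and 0.106 RPKM in the Daxx-deleted library.

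**Figure D1:**
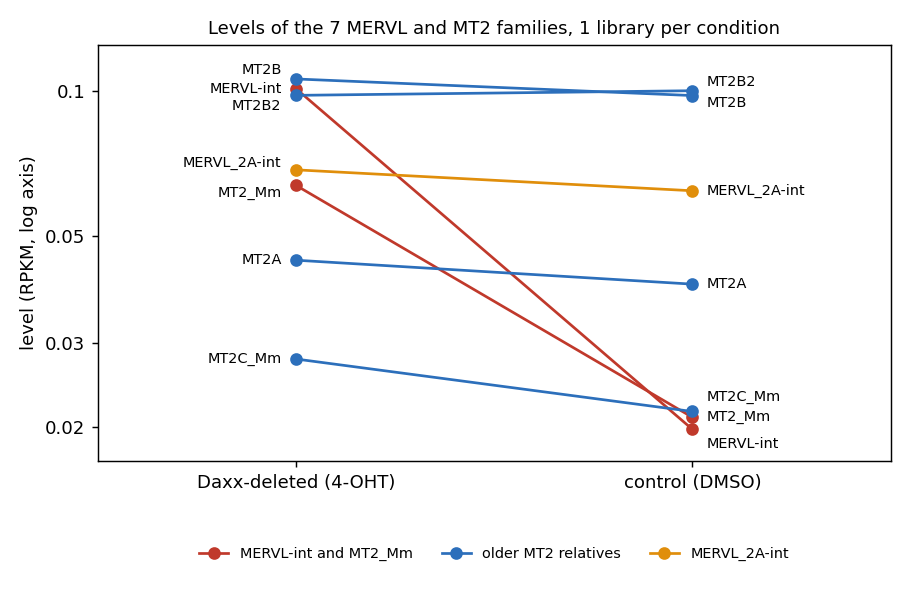
Level of each of the 7 MERVL and MT2 families in RPKM on a log axis, with the Daxx-deleted library on the left, the control on the right, and 1 point per library joined by a line. MERVL-int and MT2_Mm stand at 0.101 and 0.0637 RPKM in the Daxx-deleted library, against 0.0198 and 0.0210 RPKM in the control, while the other lines are nearly level.

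Among the internal parts, MERVL-int and its relative MERVL_2A-int differed. MERVL_2A-int was at 0.0686 RPKM in the Daxx-deleted library and at 0.0621 RPKM in the control, a ratio of 1.11. MERVL-int stood at 1.47 times the level of MERVL_2A-int in the Daxx-deleted library and at 0.319 times that level in the control. MERVL-int has 2555 annotated copies and MERVL_2A-int has 3524.

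The LTR families were compared in the same way. MT2C_Mm was at 0.0278 RPKM in the Daxx-deleted library and at 0.0216 RPKM in the control, a ratio of 1.29, the highest of the 4 older MT2 relatives. In the control MT2C_Mm and MT2_Mm were at nearly the same level, with MT2_Mm at 0.973 times MT2C_Mm. In the Daxx-deleted library that quotient was 2.30. MT2C_Mm and MT2_Mm are also the LTR families with the fewest copies, 1980 for MT2C_Mm and 2631 for MT2_Mm.

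MT2A, with 13600 copies, was at 0.0445 RPKM in the Daxx-deleted library and at 0.0397 RPKM in the control, a ratio of 1.12. MT2B, with 16358 copies the most numerous of the 7 families, was at 0.106 RPKM in the Daxx-deleted library and at 0.0980 RPKM in the control, a ratio of 1.08. MT2B2, with 3945 copies, was at 0.0981 RPKM in the Daxx-deleted library and at 0.1003 RPKM in the control. Its ratio of 0.978 was the only one of the 7 below 1. The summed level of the 4 older MT2 relatives was 0.276 RPKM in the Daxx-deleted library and 0.260 RPKM in the control, a ratio of 1.07. For the pair the sums were 0.165 RPKM in the Daxx-deleted library and 0.0408 RPKM in the control, a ratio of 4.04.

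The internal part and the LTR of the 2-cell element also differed from each other. MERVL-int stood at 1.59 times the level of MT2_Mm in the Daxx-deleted library and at 0.944 times that level in the control. The same quotient of MERVL_2A-int to MT2A was 1.54 in the Daxx-deleted library and 1.56 in the control. Multi-mapped reads were kept, so families of similar sequence may hold the same reads. How far the 7 values share reads was not tested.

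To set the families beside the rest of the table, log2 changes were computed with 0.001 RPKM added to both values, which understates the change of low families. A floor was applied to the mean of both libraries (0.01 RPKM) and to the number of copies (100), which 436 of the 634 families (68.8%) reached, all 7 MERVL and MT2 families included. The median family of these 436 was higher by 0.18 on the log2 scale. A value above that of the control was common, in 344 of the 436 families (78.9%), and 6 of the 7 MERVL and MT2 families had one. A value below that of the control was found for 92 of the 436 (21.1%) and for MT2B2. At least 2-fold higher were 23 of the 436 families (5.28%), and 2 of the 7 MERVL and MT2 families, the pair. At least 1.5-fold higher were 66 of the 436 (15.1%), and again the pair alone among the 7. At least 2-fold lower were 2 of the 436 (0.459%) and 0 of the 7. After subtraction of the median family, 14 of the 436 (3.21%) were 2-fold higher, and the pair was still among them.

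MERVL-int had a log2 change of 2.30, the highest of the 436 families, or 2.12 relative to the median family. MT2_Mm, at rank 6, had 1.56, or 1.38 relative to the median family. With a pseudocount of 0.1 RPKM the log2 changes were 0.75 for MERVL-int and 0.44 for MT2_Mm, below 2-fold, at ranks 4 and 11. When families under 1000 copies were left out, 10 of 257 (3.89%) were 2-fold higher, MERVL-int ranked 1 and MT2_Mm ranked 3. Ranked by the difference in RPKM, MERVL-int was at place 10 of the 436 families, with 0.0814 RPKM, and MT2_Mm at place 17, with 0.0427 RPKM.

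For the 4 older MT2 relatives the median of the log2 changes was 0.14, or -0.04 once the median family was subtracted. The middle of the table, between the lower and upper quartile of the 436 families, spanned 0.05 to 0.40. MT2C_Mm had a log2 change of 0.35, or 0.17 relative to the median family. MT2A had 0.16, MERVL_2A-int 0.14 and MT2B 0.11. These 3 turned negative relative to the median family, at -0.02 for MT2A, -0.03 for MERVL_2A-int and -0.06 for MT2B. MT2B2 had -0.03, or -0.21 relative to the median family, at rank 353 of 436. The mean of MERVL-int and MT2_Mm exceeded the median of the 4 older relatives by 1.79 on the log2 scale, and by 0.54 with a pseudocount of 0.1 RPKM.

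**Figure D2:**
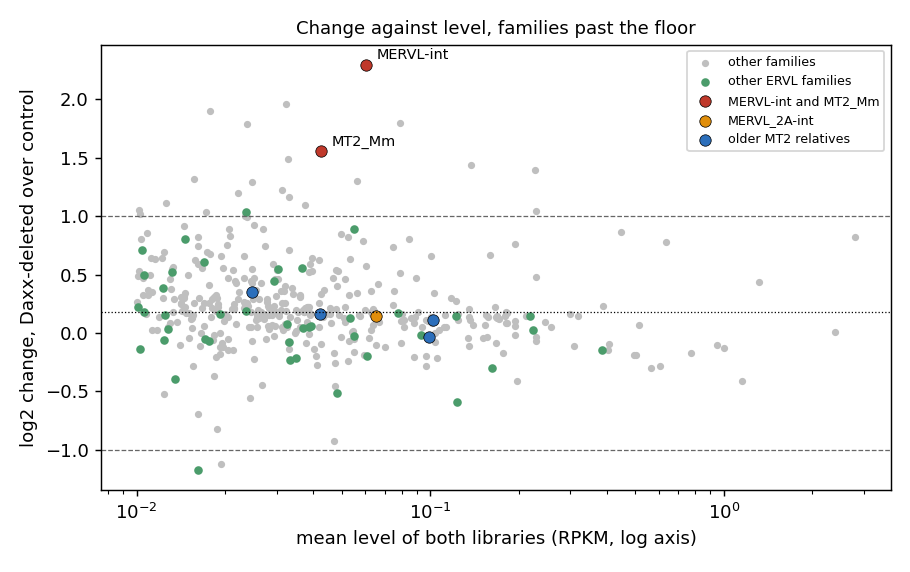
Log2 change of the 436 families, Daxx-deleted over control, against the mean level of both libraries in RPKM on a log axis, with 1 point per family. The dotted line is the median family at 0.18 and the dashed lines mark 2-fold; MERVL-int at 2.30 and MT2_Mm at 1.56 stand above the upper line, and the older MT2 relatives, from -0.03 to 0.35, lie near the dotted line.

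The families nearest in the mean level of both libraries had smaller changes than the pair. That mean includes the Daxx-deleted values of the pair, so this is not a match on control level. All 6 neighbours had higher control levels than the pair. The 3 families nearest to MERVL-int in mean level were RLTR6_Mm, LTR33C and RLTR17. RLTR6_Mm was at 0.0727 RPKM in the Daxx-deleted library and at 0.0486 RPKM in the control. LTR33C, itself an ERVL family, was at 0.0567 RPKM in the Daxx-deleted library and at 0.0649 RPKM in the control, and RLTR17 at 0.0640 RPKM in the Daxx-deleted library and at 0.0558 RPKM in the control. The 3 nearest to MT2_Mm were RLTR11A, RLTR22_Mus and RLTR21, with log2 changes of -0.10, 0.33 and 0.05. The highest log2 change among these 6 neighbours was 0.57, that of RLTR6_Mm. Families past the floor with control levels between those of MERVL-int and MT2_Mm varied, and all had smaller log2 changes than the pair. The highest was 1.16, for L1Md_A at 0.0201 RPKM in the control, and the next was 0.74, for RLTR10D. The lowest was -0.70, for LTR37B. L1_Mur2, at 0.0202 RPKM in the control, had -0.09.

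The rest of the ERVL superfamily gave the closest comparison. Of the 79 other ERVL families, 42 passed the floor, among them LTR82B, which the table lists under the class of low complexity. The median log2 change of the 42 was 0.07, or -0.11 after the median family was subtracted, and 26 of them stood above the control. One was 2-fold higher and 1 was 2-fold lower. RLTR28B, the highest, with 839 copies, was at 0.0321 RPKM in the Daxx-deleted library and at 0.0152 RPKM in the control, a log2 change of 1.03. HERVL74-int, the lowest, with 151 copies, was at 0.00959 RPKM in the Daxx-deleted library and at 0.0229 RPKM in the control. MERVL-int and MT2_Mm thus had the 2 highest log2 changes of the 49 ERVL families past the floor. The 4 older MT2 relatives, at 0.14, lay near the median of the 13 other ERVL families with at least 1000 copies, 0.18.

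The rodent MaLR families, MTA to MTE and ORR1, are nonautonomous LTR elements that share the MT name with MT2 and are transcribed in mouse oocytes and early embryos. Of 44 such families 43 passed the floor, with a median log2 change of 0.18, within 0.01 of the median family. They ran from -0.11 for ORR1A0-int to 0.83 for MTB_Mm-int, and 0 of the 43 were 2-fold higher. MTB_Mm-int, with 377 copies, was at 0.0269 RPKM in the Daxx-deleted library and at 0.0147 RPKM in the control.

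**Figure D3:**
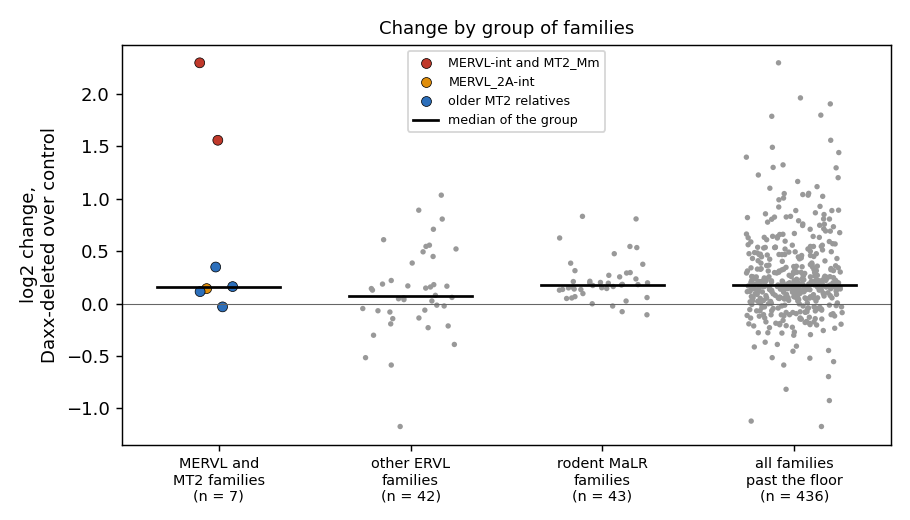
Log2 change, Daxx-deleted over control, of the 7 MERVL and MT2 families, 42 other ERVL families, 43 rodent MaLR families and all 436 families past the floor, with 1 point per family and a black line at the median of each group. The medians are 0.16, 0.07, 0.18 and 0.18, and MERVL-int and MT2_Mm stand above every other ERVL and rodent MaLR family.

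Outside the ERVL superfamily some families had changes like that of the pair. The 5 whose log2 change was nearest to the mean of the pair, 1.93, were LTR73, IAPEy-int, MMERVK10C-int, MLT1B-int and RLTR10C. IAPEy-int, the internal part of an intracisternal A-particle, had 1.96, and MMERVK10C-int, the internal part of another class II ERV, had 1.80. RLTR10C, an LTR of the class II ERVs, had 1.49. LTR73, a class I ERV with 154 copies, had 1.90, and MLT1B-int, a MaLR family with 164 copies, had 1.79. Likeness rests here on 1 ratio between the 2 libraries and says nothing of a shared pattern over further conditions.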

How the data were processed

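RNA was sequenced from 2 ES cell cultures, 1 Daxx-deleted and 1 control, as TruSeq libraries per the labels' protocols. Per the info sheet in the deposited workbook, the authors used JAGuaR 2.1, a wrapper of BWA with the exon junctions of Ensembl 67, to align reads to mm9, and kept multi-mapped reads for transposable elements. BWA 0.7.10 and mm9 are also in the submitters' processing notes. Per that sheet, the authors' RPKM values take their scale from exonic reads of protein-coding genes, after removal of mitochondrial genes, ribosomal protein genes and the 0.5% of exons with the highest expression. A family's value therefore also moves with that exonic total. The sharing of multi-mapped reads, the length used per family, the repeat annotation and the use of strand were not given in the sources used here.

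Columns were matched to samples by name, with 0 columns of other samples. Depth was not recovered: at the best common scaling, 7 of the 54 lowest families had a ratio that small whole numbers give to within 0.4%. With 1 library per group no model was fitted and no difference between the libraries was tested. Ratios are quotients of the deposited values. Log2 changes use a pseudocount of 0.001 RPKM, and counts use a floor of 0.01 RPKM, 100 copies and a 2-fold threshold. The members, lists and settings were chosen with earlier results of these data known. All 7 members are named. From outside, the rule named the 5 families nearest to the pair in log2 change, the 3 nearest to each of the pair in mean level, and the highest and lowest of 2 comparison lists. The families compared with the pair on control level were named outside this rule, with their values known. The code that counts families past a fold was tested on simulated data with known folds. Alternatives varied the pseudocount, floor, copies, threshold, median and list summary. The software was pandas 2.3.3, numpy 2.4.6 and matplotlib 3.10.9 under Python 3.11.15. No coordinates are given, because the values are per family and hold no locus.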

Additional observations from a re-analysis of the deposited data

How the results depend on the processing

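With no replicate error, a shift of over 1.5-fold was the limit for calling a value moved. The log2 changes of the 5 families outside the pair stayed within that limit in 25 of 25 alternatives, but each lay below it, at most 0.35, so a fall to 0 could not have been counted. With a pseudocount of 0.1 RPKM, the log2 change was 0.75 for MERVL-int and 0.44 for MT2_Mm, the gap between the pair and the older MT2 relatives was 0.54, and 0 members were 2-fold higher. This pseudocount is larger than the control levels of the pair, 0.0198 and 0.0210 RPKM. Of the members, 1 was 2-fold higher with a floor of 0.05 RPKM, which MT2_Mm does not reach, and 1 was 3-fold higher, since MT2_Mm has a ratio of 3.03 but 1.56 on the log2 scale with the pseudocount. The other alternatives left 2. Without a pseudocount, an alternative chosen after seeing the data, the log2 changes were 2.35 for MERVL-int and 1.60 for MT2_Mm. The counts of all families 2-fold higher and lower, 23 and 2, became 11 and 0 at a pseudocount of 0.01 RPKM, 0 and 0 at 0.1 RPKM, 42 and 4 with no floor, 6 and 0 with a floor of 0.05 RPKM, and 10 and 0 with at least 1000 copies. At 1.5-fold they were 66 and 6, and at 3-fold 5 and 0. After subtraction of the median 14 were higher, and with no minimum of copies 7 were lower. No paired analysis was possible because there is 1 library per condition and no test.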
